A study of Rattus norvegicus with 12 samples.

Results

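Transcripts of 36 genes of the complement and blood clotting systems were measured in rat liver. The genes were taken by symbol from a deposited table of 40154 genes. They comprise 20 complement components and regulators and 16 factors of coagulation and fibrinolysis with their inhibitors, and leave out the fibrinogen chains. RNA sequencing covered 12 liver libraries of Sprague Dawley rats in 4 groups of 3. Control animals had a normal diet, and the Control+SAMC group had that diet with S-allylmercaptocysteine (SAMC), an organosulfur compound of aged garlic. HFD animals had a high fat diet, and the HFD+SAMC group had that diet with SAMC. The question behind the series is how SAMC acts on the fatty liver. HFD libraries are numbered 2 to 4 and those of the other groups 1 to 3. Dose, duration, sex and age are not named in the labels, and nothing there says that each library is a separate animal. All p-values therefore measure the spread between these libraries, part of which may be technical.

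Complement and coagulation are cascades of plasma proteases that circulate as inactive precursors and cut one another in turn. The lectin, classical and alternative pathways of complement meet at C3, and the terminal components then assemble a pore in the target membrane. Coagulation runs through factor X to thrombin, which turns fibrinogen into fibrin, while plasmin dissolves the clot. Hepatocytes make most of these proteins, and their genes are known targets of the liver-enriched factors HNF1, HNF4 and C/EBP and, in the acute phase, of STAT proteins.

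Total counts ran from 45680738 to 61937544 per library, and the 36 genes together took 3.45% to 4.60% of them. All 36 passed the filter on low counts, which kept 15916 genes. All 10 hepatocyte markers examined were present in every library, from 198 CPM for Hal upward, where CPM is counts per 1e+06 on library totals scaled by TMM, edgeR's trimmed mean method. Albumin (Alb) took 7.32% to 21.8% of counts, the most in Control replicate 2, whose TMM factor was 0.795 against 0.901 to 1.18 in the other 11. HFD+SAMC replicate 3 held the muscle transcript Acta1 at 439.7 CPM, against at most 0.135 CPM elsewhere. The deposited RPKM (reads scaled to gene length and library total) of RGD1562465, which is not among the 36 genes, implied a length of 3377 bp in Control and HFD+SAMC libraries and 4432 bp in Control+SAMC and HFD libraries. The RPKM of these library sets were thus made with different length tables, though no other gene showed a differing length. Counts and CPM use no gene length, and whether other processing differed between the sets is not known. Each change of diet alone or of SAMC alone crosses the sets, the contrasts averaged over the other factor hold both sets in equal number, and the interaction of diet and SAMC cannot be told apart from the set.

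None of the 36 genes passed an adjusted p of 0.05 in edgeR's quasi-likelihood test, adjusted over all tested genes, in any of 9 contrasts. For the diet averaged over SAMC, 67 of all tested genes were called (0.421%) and 0 of 36 here. For SAMC averaged over the diets the share called was 0.22% of all genes. For HFD against Control it was 0.145%, for HFD+SAMC against HFD 0.0503%, for Control+SAMC against Control 0.119% and for HFD+SAMC against Control+SAMC 0.0628%. For HFD+SAMC against Control it was 0.176%, for HFD against Control+SAMC 0.364% and for the interaction 0.145%. With under 1% of genes called in each contrast, 0 of 36 is close to the background. At an unadjusted p under 0.05, 5 of the 36 passed for the averaged diet contrast (13.6% of all genes) and 6 for averaged SAMC (12.4%). The corresponding counts were 5 for HFD against Control (10.7%), 3 for HFD+SAMC against HFD (10.6%), 6 for Control+SAMC against Control (9.78%) and 2 for HFD+SAMC against Control+SAMC (10.9%). They were 8 for HFD+SAMC against Control (12.6%), 3 for HFD against Control+SAMC (13%) and 3 for the interaction (7.41%).

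The intervals around these changes were narrow for most of the 36 genes. The 95% interval of the fitted change lay within 2-fold either way for 36 of 36 genes in the averaged SAMC contrast (72.4% of all tested genes) and for 35 of 36 in the averaged diet contrast (71.6%). The exception was C6, a terminal complement component, whose diet interval on the log2 scale was -1.01 to 0.22. Within 1.5-fold lay 29 of the 36 genes in each of these contrasts. For HFD against Control the count within 2-fold was 34 of 36 (59.2%), and for HFD+SAMC against HFD 31 of 36 (59.9%). The plot of fitted changes gives each gene's estimate.

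**Figure D1:**
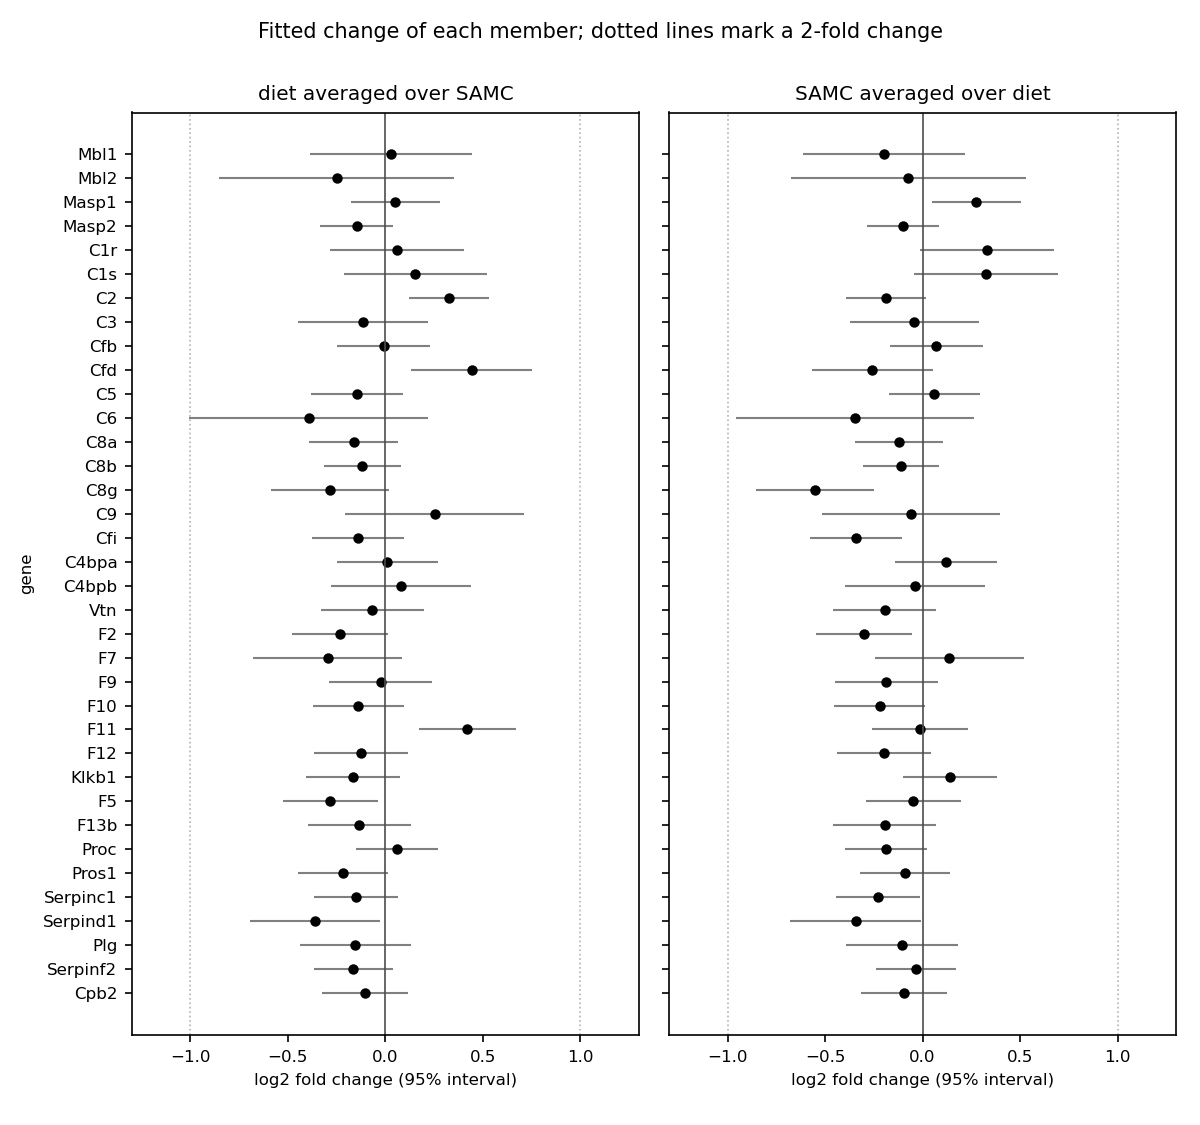
Fitted log2 fold change of each of the 36 genes (rows, grouped by role) with its 95% interval, for high fat against normal diet averaged over SAMC (left) and for SAMC against none averaged over the diets (right), with 6 libraries on each side. Dotted lines mark a 2-fold change; on the left only the interval of C6 reaches past one, and on the right none does.

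Levels of the 36 transcripts differed from each other far more than between groups. Per length, C3, on which all complement pathways converge, was highest at 3336 ± 344 RPKM (mean and SD over 12 libraries). Vitronectin (Vtn), a plasma inhibitor of the terminal pore, followed at 2166 ± 212 RPKM, prothrombin (F2) at 1031 ± 101 RPKM, plasminogen (Plg) at 827 ± 77.8 RPKM and antithrombin (Serpinc1) at 785 ± 59.8 RPKM. The SDs of Plg and Serpinc1 overlap, so their order does not exceed their spread. These 5 transcripts held 54.4% to 58.6% of the summed RPKM of the 36 genes in each library. At the other end stood protein S (Pros1) at 31.3 ± 2.58 RPKM, complement factor D (Cfd), the protease that starts the alternative pathway, at 21.5 ± 6.60 RPKM, and the mannose-binding lectin Mbl2 at 0.692 ± 0.222 RPKM.

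**Figure D2:**
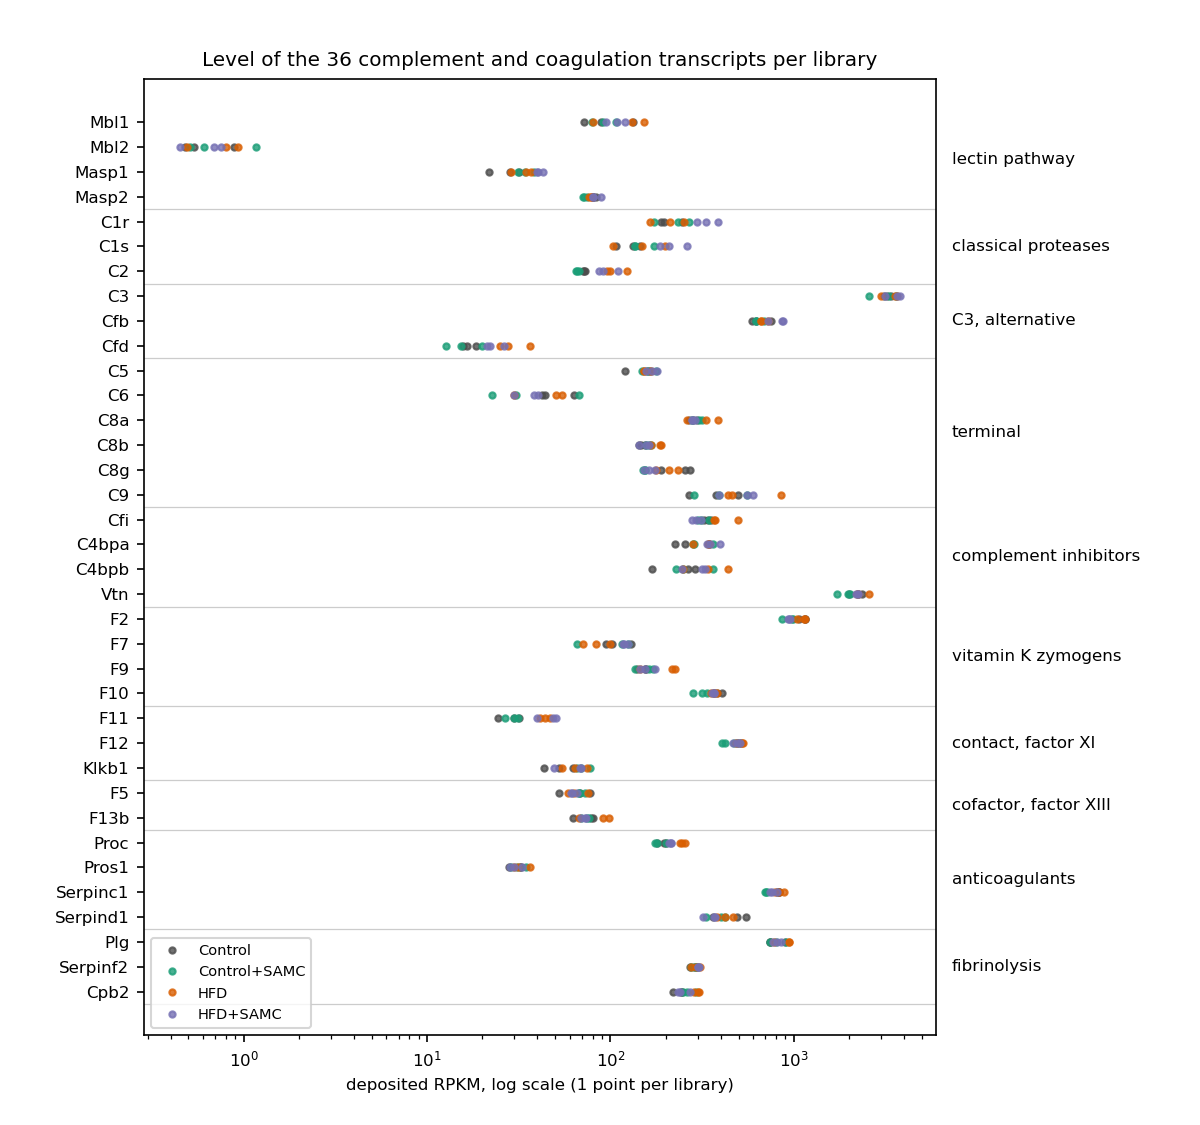
Deposited RPKM of the 36 transcripts on a log axis, 1 point per library coloured by group, with genes in rows by role. The points of a gene from all 4 groups lie close together beside the range between genes, which runs from a mean of 0.692 RPKM for Mbl2 to 3336 RPKM for C3.

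Across the 12 libraries the median coefficient of variation of the 36 genes, on the CPM scale, was 14.3%, against 23.5% over all tested genes. Their median level was 452 CPM against 8.42 CPM over all genes, so the CVs are not matched for level. C8b, a chain of the terminal component C8, varied least at 8.83%, and C6 most at 38.2%. For 26 of the 36 genes the highest library was under 2 times the lowest. Control replicate 2 held the highest CPM of 17 genes and Control+SAMC replicate 1 the lowest of 11. By RPKM, which uses library totals without TMM scaling, Control replicate 2 was highest for 3 genes and lowest for 10, and HFD replicate 3 was highest for 12. Which library stands at the extreme of a gene thus depends on the scaling. So does overlap between groups, which is given for TMM-scaled CPM unless stated.

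**Figure D3:**
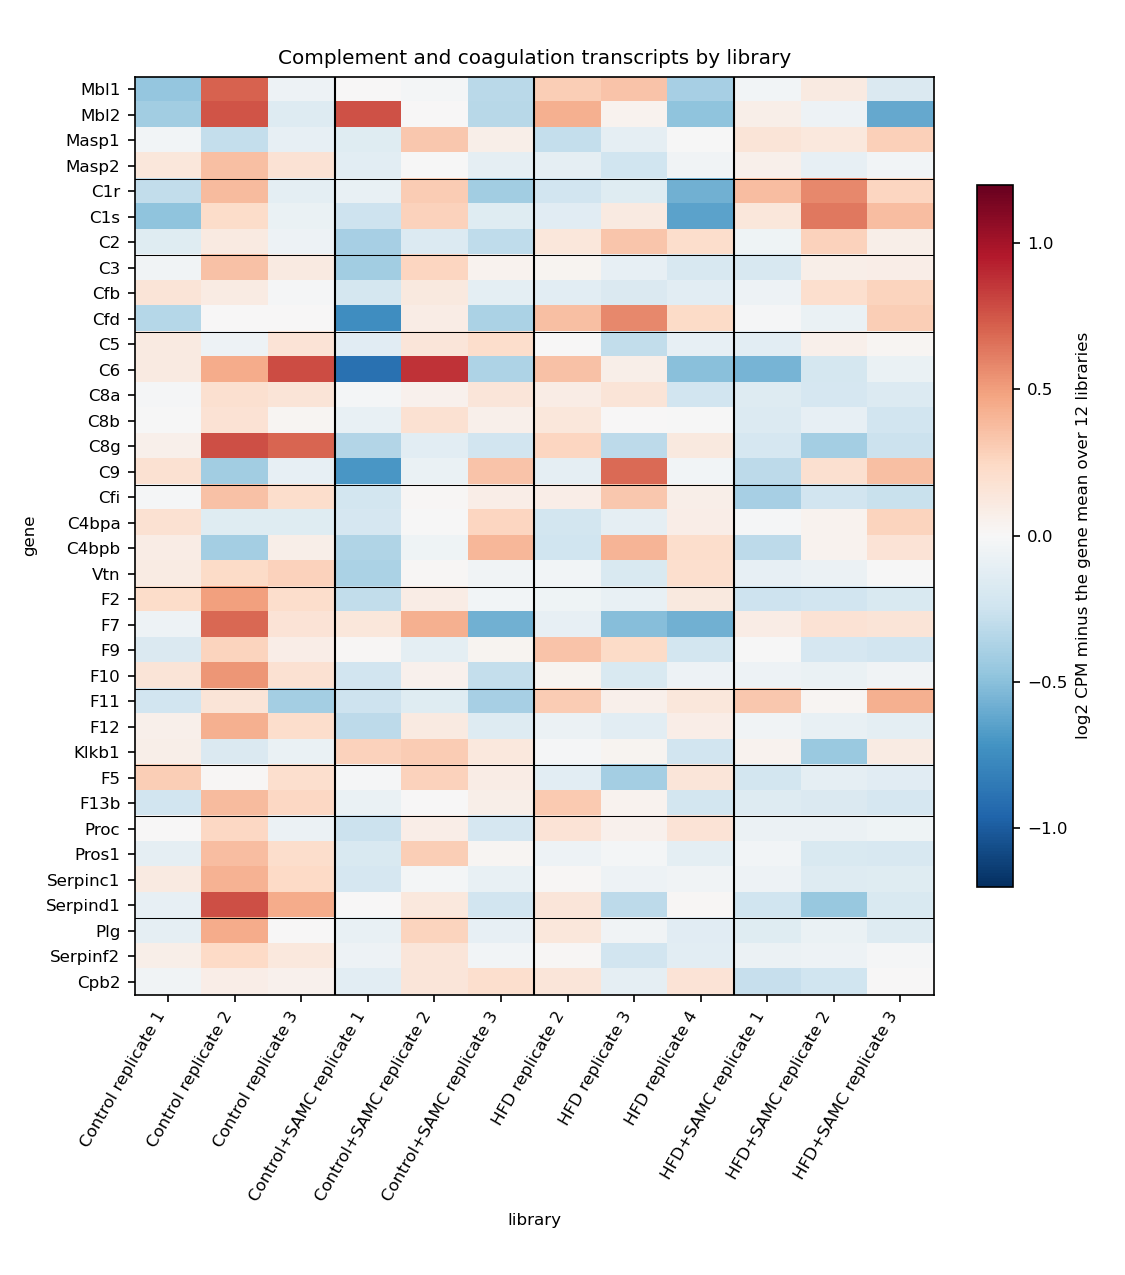
Log2 CPM of each of the 36 genes (rows, by role) in each of the 12 libraries (columns, by group), as the difference from the gene's mean over the libraries; red is above and blue below the mean. Most cells are pale, Control replicate 2 is above the mean for most genes, and C6 differs most between libraries, with a coefficient of variation of 38.2%.

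On the high fat diet, averaged over SAMC, the members with the smallest p were factor XI (F11), C2 and factor D (Cfd), higher by 0.42 ± 0.11, 0.33 ± 0.09 and 0.44 ± 0.14 on the log2 scale (SE). In this contrast 11 of the 36 genes were higher and 25 lower on the high fat diet, with a median log2 fold change of -0.13, beside 0.00 over all genes, of which 50.1% were higher. Among the 16 clotting genes 14 were lower with TMM and 4 with library totals, and among the 20 complement genes 11 and 3. With TMM none of the 36 had all 6 high fat libraries apart from all 6 normal diet libraries (0.578% of all genes did so upward and 0.503% downward). With library totals F11, C2 and Cfd did so upward, and the share of all genes was not counted. DESeq2 called 2 of the 36 (3.39% of all genes), and limma on log2(RPKM + 0.1) called 3 (2.97%). The direction of the median depends on the scaling. With library totals in place of TMM the median of all genes was 0.22, that of the 36 genes was 0.10 with 29 higher, and edgeR called 3 of them, F11, C2 and Cfd (3.6% of all genes). Relative to all genes the 36 lay lower under both scalings. A change of scaling moves all genes nearly alike, so the second scaling is no separate support for this. Of 10 hepatocyte markers 10 were lower with TMM and 8 with library totals, with medians of -0.38 and -0.16 and none called with TMM. They summed in CPM to 152570 to 371970 in Control, 161070 to 230160 in Control+SAMC, 130200 to 171880 in HFD and 141340 to 163750 in HFD+SAMC. The highest sum was that of Control replicate 2, where Alb alone took 21.8% of counts. In whole liver, fewer hepatocytes and less RNA per hepatocyte cannot be told apart, and the part of either in these values was not tested.

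HFD against Control gave 9 genes higher and 27 lower (49.3% of all genes were higher), with a median of -0.13, and under library totals 27 higher with a median of 0.19 beside 0.29 over all genes and 0 of 36 called (0.854% of all genes). Their 3 libraries did not overlap for 2 genes upward (8.27% of all genes) and 7 downward (6.44%). The 7 were Masp2, F7, F10, Serpinc1, F2, Serpinf2 and Cfb, and the 2 were Cfd and C2. HFD+SAMC against Control+SAMC gave 17 higher and 19 lower (51.1% of all genes higher), or 23 and 13 under library totals. The TMM median was -0.04, with no overlap for 2 genes upward (9.27%) and 6 downward (8.54%). DESeq2 and limma called 0 of 36 in both contrasts (DESeq2 1.94% and 1.71% of all genes, limma 1.18% and 0.207%).

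With SAMC, averaged over the diets, the members with the smallest p were C8g, the complement inhibitor factor I (Cfi) and prothrombin (F2), with log2 differences of -0.55 ± 0.14, -0.34 ± 0.11 and -0.30 ± 0.11 (SE). In this contrast 8 of the 36 genes were higher and 28 lower, with a median of -0.10 beside 0.00 over all genes, of which 49.2% were higher. Under library totals 13 were higher and 23 lower. Of the 16 clotting genes 14 were lower, or 11 with library totals, and of the 20 complement genes 14, or 12. Again with TMM no gene of the 36 separated all 6 SAMC libraries from the other 6 (0.572% of all genes upward, 0.383% downward). With library totals F2 and C8g did so downward, C8g narrowly, and the share of all genes was not counted. DESeq2 called 2 of the 36 (2.75% of all genes) and limma 0 (0.239%). Hepatocyte markers were lower for 7 of 10, or 6 with library totals, with a median of -0.10 and none called. On the normal diet 9 genes were higher and 27 lower with SAMC (48.5% of all genes higher), and 18 and 18 under library totals. The median was -0.14 with TMM and 0.00 with library totals, beside 0.12 over all genes. No overlap was seen for 1 gene upward (7.03%) and 7 downward (6.51%). DESeq2 called 1 of the 36 there (1.39%), and limma 0 (0.245%). On the high fat diet 12 were higher and 24 lower (50.5% of all genes higher), with a median of -0.11 and no overlap for 5 genes upward (9.4%) and 4 downward (9.41%), and neither DESeq2 (1.55%) nor limma (0.138%) called any. The interaction of diet and SAMC was above 0 for 23 genes and below for 13 (51.6% of all genes above), or 15 and 21 under library totals. Its median was 0.11, with 0 of 36 genes called by edgeR, DESeq2 (0.807%) or limma (0.427%).

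Both further contrasts lie within a library set. HFD+SAMC against Control had 10 genes higher and 26 lower (49.7% of all genes higher), a median of -0.20 and no overlap for 1 gene upward (10.2%) and 14 downward (9.49%). With library totals that median was 0.07 with 23 genes higher, beside 0.27 over all genes. DESeq2 called 4 of the 36 in it (2.82% of all genes) and limma 0 (1.06%). HFD against Control+SAMC had 16 higher and 20 lower (50.2% of all genes higher), or 29 and 7 under library totals, a TMM median of -0.01 and no overlap for 3 upward (8.8%) and 1 downward (8.33%). DESeq2 (3.47%) and limma (0.905%) each called 1, which was C2. These contrasts share libraries with those above, so their values are not separate evidence.

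The lectin pathway starts with mannose-binding lectins, which bind sugars on microbes, and their proteases Masp1 and Masp2. Mbl1 was the most abundant of the 4 transcripts at 105 ± 24.96 RPKM, and its CPM was 88.7, 199 and 117 in Control, 123, 119.7 and 97.6 in Control+SAMC, 149.8, 154 and 92.8 in HFD and 119, 132 and 108 in HFD+SAMC libraries. The groups overlap, with Control replicate 2 highest and Control replicate 1 lowest. Masp2, which cuts C4 and C2, stood at 284, 332 and 292 in Control, 237, 258 and 239 in Control+SAMC, 240.3, 219 and 250.5 in HFD and 270.1, 242 and 252 in HFD+SAMC libraries. With TMM each Control library lay above each library of the other 3 groups, which overlapped one another, while with library totals HFD+SAMC overlapped Control. Its log2 fold change for HFD against Control was -0.35 ± 0.12 (adjusted p = 0.32), and with library totals in place of TMM it was -0.06. Masp1, which activates Masp2, ranged from 228 to 349 CPM and differed by 0.27 ± 0.11 (adjusted p = 0.31) for averaged SAMC. Mbl2 stayed at 1.19 to 3.10 CPM.

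Of the classical pathway, C1r and C1s are the proteases of the first component, and C2 is cut by them to form the C3 convertase. C1r lies at chromosome 4, 157126060 to 157136825, and C1s at chromosome 4, 157143592 to 157155592, in deposited coordinates whose build is not named. C1r CPM was 526, 837 and 592 in Control, 606, 793 and 481 in Control+SAMC, 547, 581 and 431 in HFD and 833, 959 and 768 in HFD+SAMC libraries. All 3 HFD+SAMC libraries were above all 3 HFD libraries, whereas Control and Control+SAMC libraries ranged across both. The log2 fold change of HFD+SAMC against HFD was 0.71 ± 0.22 (adjusted p = 0.313), the smallest p among the 36 genes in that contrast. C1s was at 323, 527 and 428 in Control, 379.7, 547 and 408 in Control+SAMC, 410.1, 486 and 289 in HFD and 498, 702 and 583 in HFD+SAMC libraries, with HFD+SAMC again above HFD, if narrowly, and a change of 0.59 ± 0.24 (adjusted p = 0.408). With library totals HFD+SAMC overlapped HFD for C1s. The interaction was 0.77 ± 0.32 (adjusted p = 0.633) for C1r and 0.53 ± 0.34 (adjusted p = 0.784) for C1s, and cannot be told apart from the library set.

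C2 was at 195, 233 and 207 in Control, 164, 192 and 174 in Control+SAMC, 237, 272 and 249.6 in HFD and 208, 262 and 227 in HFD+SAMC libraries. All 3 HFD libraries exceeded every normal diet library, and every HFD+SAMC library exceeded every Control+SAMC library. With TMM HFD+SAMC overlapped Control, though not with library totals. The averaged diet difference was 0.33 ± 0.09 (adjusted p = 0.17), about 1.25-fold. Between HFD and Control+SAMC, which lie in the same library set, the difference was 0.51 ± 0.13 (adjusted p = 0.135). DESeq2 gave an adjusted p of 0.0344 for the averaged diet contrast, edgeR on library totals 0.0225 and limma on log2(RPKM + 0.1) 0.0222, whereas edgeR with TMM stayed at 0.12 to 0.328 with any 1 library left out. C2 lies at chromosome 20, 4542340 to 4561152, 267 bp from Cfb on the same strand, and whether reads of one could be counted for the other is not known.

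C3 and the alternative pathway factors B and D form the amplification loop. C3 CPM was 16343, 21534 and 18135 in Control, 12616, 20100.1 and 17380.3 in Control+SAMC, 17202, 15718 and 14714 in HFD and 14785, 17727 and 17761 in HFD+SAMC libraries. Control+SAMC replicate 1 was lowest and Control replicate 2 highest, the groups overlap, and the averaged differences were -0.11 ± 0.15 for diet and -0.04 ± 0.15 for SAMC. Factor B (Cfb), the protease of the alternative convertase, ranged from 1535 to 2148 CPM. Factor D (Cfd) was at 13.6, 17.3 and 17.2 in Control, 10.3, 18.4 and 13.3 in Control+SAMC, 22.2, 25.8 and 20.2 in HFD and 17.1, 16.4 and 21.2 in HFD+SAMC libraries. Its 3 HFD libraries exceeded all Control and Control+SAMC libraries. With TMM HFD+SAMC overlapped both normal diet groups, though not with library totals. The averaged diet difference was 0.44 ± 0.14 (adjusted p = 0.203). Under library totals it was 0.68 with an adjusted p of 0.0262, and limma gave 0.0294, while DESeq2 did not call it. Cfd lies at chromosome 7, 12634216 to 12635939.

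The terminal components are C5, whose cleavage starts pore assembly, C6, the 3 chains of C8 (C8a, C8b and C8g), and C9, which forms the ring. C9 was the most abundant per length at 473 ± 158 RPKM and varied from 581 to 1513 CPM, its CPM being 1075, 708 and 880.4 in Control, 581, 894 and 1194 in Control+SAMC, 874, 1513 and 926 in HFD and 759, 1077 and 1209 in HFD+SAMC libraries. HFD replicate 3 was highest and Control+SAMC replicate 1 lowest, so the extremes were single libraries and the averaged diet difference was 0.25 ± 0.21 (adjusted p = 0.646). C5 ranged from 769.7 to 1092 CPM, C6 from 69.95 to 237 CPM, C8a from 919.5 to 1228 CPM and C8b from 374 to 496 CPM. The smallest adjusted p of these 4 over the averaged contrasts was 0.532, for C8a and diet.

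C8g, a lipocalin and the only chain of C8 that is no pore-forming protein, had the smallest p of the 36 genes for averaged SAMC. It was at 273, 447 and 422 in Control, 204, 238 and 223 in Control+SAMC, 311, 209.8 and 282 in HFD and 227, 196 and 218 in HFD+SAMC libraries. Each SAMC library on the normal diet was below each Control library, and with TMM on the high fat diet the SAMC libraries overlapped HFD replicate 3. With library totals the HFD+SAMC libraries lay below HFD replicate 3, if narrowly. The averaged SAMC difference was -0.55 ± 0.14 (adjusted p = 0.137), or 1.47-fold lower, that on the normal diet -0.78 ± 0.20 (adjusted p = 0.226) and that on the high fat diet -0.33 ± 0.20 (adjusted p = 0.591). The interaction was 0.45 ± 0.28 (adjusted p = 0.771). DESeq2 called C8g for averaged SAMC (adjusted p = 0.0137), for Control+SAMC against Control (0.0239) and for HFD+SAMC against Control (0.00563). Control replicate 1, at 273 CPM, was the lowest of its group, and without it edgeR called C8g for averaged SAMC (adjusted p = 0.0495, with 0.281% of all genes called) and for HFD+SAMC against Control (0.0363, with 0.324% called). For the other chains the estimates were smaller. C8a differed by -0.12 ± 0.10 and C8b by -0.11 ± 0.09 for averaged SAMC. C8g lies at chromosome 3, 2724616 to 2727616.

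Of the complement inhibitors, factor I (Cfi) cuts C3b and C4b, the C4b-binding protein chains C4bpa and C4bpb serve as its cofactor, and vitronectin blocks the terminal pore. Cfi was at 785, 1010.0 and 919 in Control, 683, 801 and 839 in Control+SAMC, 838, 993 and 834 in HFD and 602, 678 and 659 in HFD+SAMC libraries. With TMM every HFD+SAMC library lay below every library of the other groups, while with library totals HFD+SAMC overlapped Control+SAMC. Against HFD the difference was -0.46 ± 0.15 (adjusted p = 0.334), and averaged over diets -0.34 ± 0.11 (adjusted p = 0.233), which DESeq2 called (adjusted p = 0.0336). Vtn CPM was 3679, 4039 and 4179 in Control, 2643, 3487 and 3345 in Control+SAMC, 3360.0, 3036 and 3955 in HFD and 3208, 3282 and 3426 in HFD+SAMC libraries, with Control above both SAMC groups without overlap and HFD across all 3. With library totals both SAMC groups overlapped Control for Vtn. In the TMM fit Vtn differed by -0.33 ± 0.17 (adjusted p = 0.571) between Control+SAMC and Control. C4bpa ranged from 624 to 874 CPM and C4bpb from 281 to 494 CPM.

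Prothrombin (F2) and factors VII, IX and X (F7, F9, F10) are proteases that need vitamin K for their calcium-binding residues, and with none called all 4 were lower in the averaged diet contrast with TMM, but 2 with library totals. F2 was at 2374, 2866 and 2358 in Control, 1659.6, 2165 and 1987 in Control+SAMC, 1966, 1912 and 2203 in HFD and 1711, 1739 and 1796 in HFD+SAMC libraries. With TMM each Control library was above each library of the other 3 groups, and HFD+SAMC libraries lay below HFD. F2 differed by -0.30 ± 0.11 (adjusted p = 0.303) for averaged SAMC, -0.23 ± 0.11 (adjusted p = 0.394) for averaged diet and -0.53 ± 0.16 (adjusted p = 0.208) between HFD+SAMC and Control, where DESeq2 gave an adjusted p of 0.00901. F7, which starts clotting with tissue factor, was at 130.5, 219 and 152 in Control, 149, 183 and 91.2 in Control+SAMC, 127, 95.2 and 91.2 in HFD and 144, 153 and 152 in HFD+SAMC libraries. Its HFD libraries were below those of Control and of HFD+SAMC, but Control+SAMC spanned the range of both high fat diet groups, and HFD against Control differed by -0.68 ± 0.25 (adjusted p = 0.356). F10 was at 621, 805 and 636 in Control, 476, 580.4 and 457 in Control+SAMC, 573, 492 and 536 in HFD and 536, 529 and 542 in HFD+SAMC libraries, with Control again above the other 3 groups and a difference of -0.45 ± 0.15 (adjusted p = 0.362) between Control+SAMC and Control. With library totals HFD overlapped Control for F2, F7 and F10, and HFD+SAMC overlapped Control for F10. F9 ranged from 407 to 604 CPM with overlapping groups.

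Factor XII (F12) and plasma prekallikrein (Klkb1) belong to the contact system, and factor XI (F11), which it activates, passes the signal to factor IX. F12 CPM was 1061, 1366 and 1174 in Control, 818, 1092 and 914 in Control+SAMC, 967, 932 and 1074 in HFD and 988, 953 and 937 in HFD+SAMC libraries, with Control replicate 2 highest and Control+SAMC replicate 1 lowest. With TMM each Control library was above each HFD+SAMC library, though not with library totals. The other pairs of groups overlapped, and the averaged diet difference was -0.12 ± 0.11 (adjusted p = 0.675). F11 was at 84.5, 110.2 and 74.4 in Control, 82.98, 89.3 and 75.2 in Control+SAMC, 122, 103 and 109 in HFD and 123, 101 and 133 in HFD+SAMC libraries. Each HFD+SAMC library exceeded each Control+SAMC library, and with TMM HFD and HFD+SAMC exceeded Control apart from Control replicate 2. With library totals both exceeded Control replicate 2 as well. The averaged diet difference was 0.42 ± 0.11 (adjusted p = 0.141), or 1.34-fold, the smallest p of the 36 genes in that contrast, and under SAMC alone it was 0.53 ± 0.16 (adjusted p = 0.273). DESeq2 (adjusted p = 0.044), edgeR on library totals (0.0133) and limma on log2(RPKM + 0.1) (0.0162) called it, and TMM with any 1 library left out gave 0.0571 to 0.303. Klkb1 was at 227, 191 and 205 in Control, 262, 268 and 237 in Control+SAMC, 215, 222 and 185 in HFD and 222, 159 and 232 in HFD+SAMC libraries, with Control+SAMC above the other groups and -0.32 ± 0.16 (adjusted p = 0.489) for HFD+SAMC against Control+SAMC. With library totals both high fat diet groups overlapped Control+SAMC for Klkb1. F11 lies at chromosome 16, 50179458 to 50201644, and Klkb1 at chromosome 16, 50151127 to 50175407.

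Factor V (F5), the cofactor of factor X, ranged from 300.1 to 486 CPM and differed by -0.28 ± 0.11 (adjusted p = 0.291) for averaged diet. F13b, the carrier chain of the factor that cross-links fibrin, stood per length at 76.2 ± 10.2 RPKM, and its CPM was 157, 238 and 217 in Control, 174, 183 and 192 in Control+SAMC, 228, 188 and 157 in HFD and 165, 163 and 159.8 in HFD+SAMC libraries. With TMM each Control+SAMC library was above each HFD+SAMC library, though not with library totals, and Control and HFD overlapped both. Of the natural anticoagulants, antithrombin (Serpinc1), which inhibits thrombin and factor X, was at 1287, 1596 and 1409 in Control, 1040.0, 1173 and 1124 in Control+SAMC, 1210.1, 1148 and 1163 in HFD and 1149, 1071 and 1080.4 in HFD+SAMC libraries. With TMM Control lay above every library of the other 3 groups, and these overlapped one another, while with library totals HFD overlapped Control. Differences were -0.36 ± 0.14 (adjusted p = 0.418) for Control+SAMC against Control, -0.29 ± 0.14 (adjusted p = 0.5) for HFD against Control and -0.23 ± 0.10 (adjusted p = 0.369) for averaged SAMC. Heparin cofactor II (Serpind1), a second thrombin inhibitor, ranged from 631 to 1482 CPM (median 838) with the highest value in Control replicate 2, and differed by -0.36 ± 0.15 (adjusted p = 0.326) for diet and -0.34 ± 0.15 (adjusted p = 0.388) for SAMC. Protein C (Proc), which inactivates factors V and VIII, ranged from 284 to 403 CPM, and its cofactor Pros1 from 106 to 156 CPM.

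Plasminogen, the precursor of the clot-dissolving protease plasmin, was at 2179, 3212 and 2353 in Control, 2213, 2835 and 2191 in Control+SAMC, 2578, 2288 and 2145 in HFD and 2129.7, 2227 and 2106 in HFD+SAMC libraries. The groups overlap, with differences of -0.15 ± 0.13 for diet and -0.11 ± 0.13 for SAMC. Its inhibitor alpha-2-antiplasmin (Serpinf2) ranged from 546 to 754 CPM, with a coefficient of variation of 9.05%. Cpb2, a carboxypeptidase that slows fibrinolysis, ranged from 308 to 431 CPM. With none called, all 3 were lower in both averaged contrasts with TMM, but with library totals 0 were lower for diet and 2 for SAMC.

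**Figure D4:**
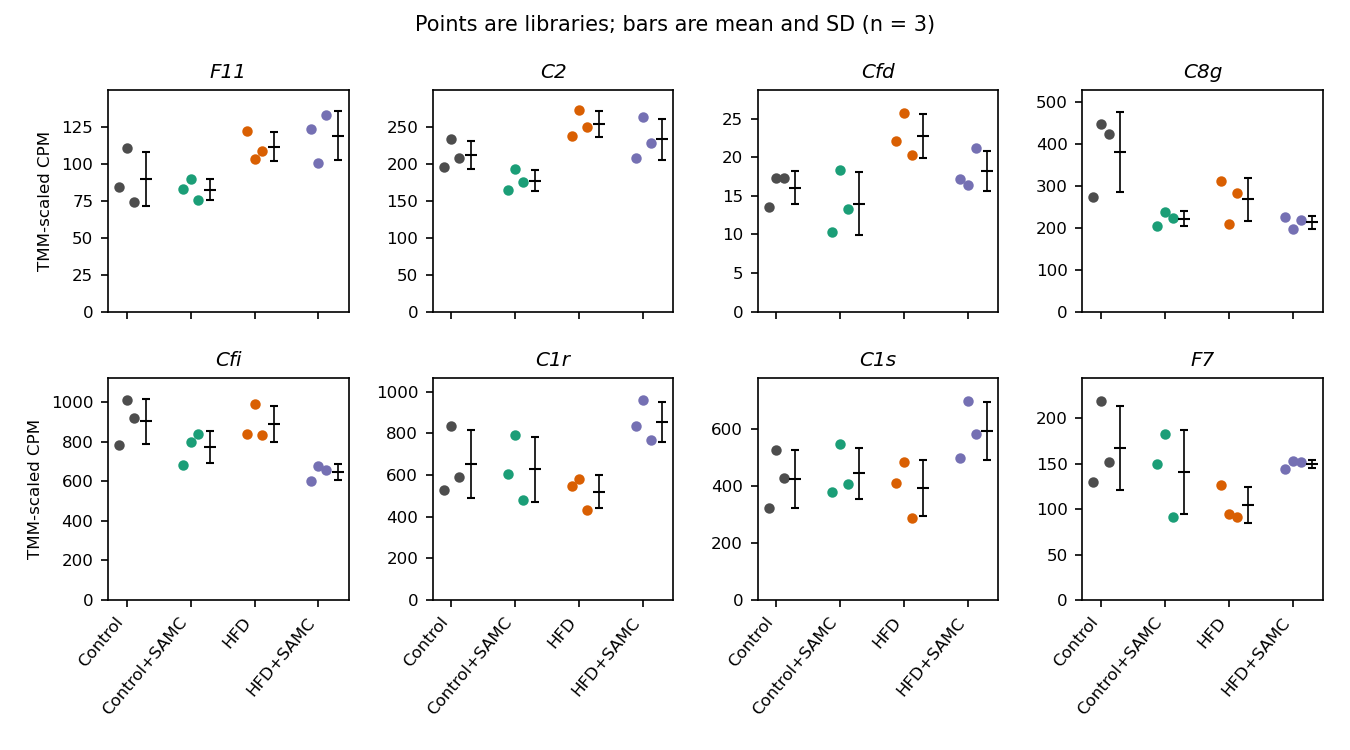
TMM-scaled CPM of 8 of the 36 genes in each library (points) by group, with the group mean and SD (bars, n = 3). F11, C2 and Cfd have higher means in the high fat diet groups, but Control replicate 2 lies within the high fat diet range for each. C8g is highest in 2 Control libraries, and C1r and Cfi differ between HFD and HFD+SAMC without overlap. None passed an adjusted p of 0.05 in edgeR.

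Members that lie next to each other in the genome allow a comparison that no library scaling touches, the ratio of their RPKM within a library. The table holds 6 such pairs within 1e+05 bp. C8a and C8b, 10481 bp apart and transcribed toward each other, kept a ratio of 1.58 to 2.05 over the 12 libraries. The SD of its log2 value was 0.111, which ranked 12 of the 630 pairs among the 36 genes, whose median SD was 0.319. C1r and C1s, 6767 bp apart and likewise convergent, kept a ratio of 1.26 to 1.79, with an SD of 0.168 and rank 71. Over the 9593 bp between C4bpa and C4bpb the ratio went from 0.778 to 1.37. The 3 remaining pairs had SDs of 0.256 to 0.395.

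The ratio of C2 to Cfb was 0.0968, 0.12 and 0.115 in Control, 0.105, 0.0978 and 0.105 in Control+SAMC, 0.143, 0.169 and 0.15 in HFD and 0.12, 0.126 and 0.104 in HFD+SAMC libraries. All 3 HFD values lay above the other 9. For F11 to Klkb1, 4051 bp apart on the same strand, the ratio was 0.476, 0.736 and 0.465 in Control, 0.405, 0.426 and 0.405 in Control+SAMC, 0.728, 0.595 and 0.752 in HFD and 0.709, 0.811 and 0.732 in HFD+SAMC. Control+SAMC was lowest, and Control replicate 2 stood within the range of the high fat diet groups. The ratio of F7 to F10, 2134 bp apart, averaged 0.228 in HFD and 0.327 in HFD+SAMC, with no overlap between those groups. These ratios show unequal levels of the neighbours and carry no test.

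**Figure D5:**
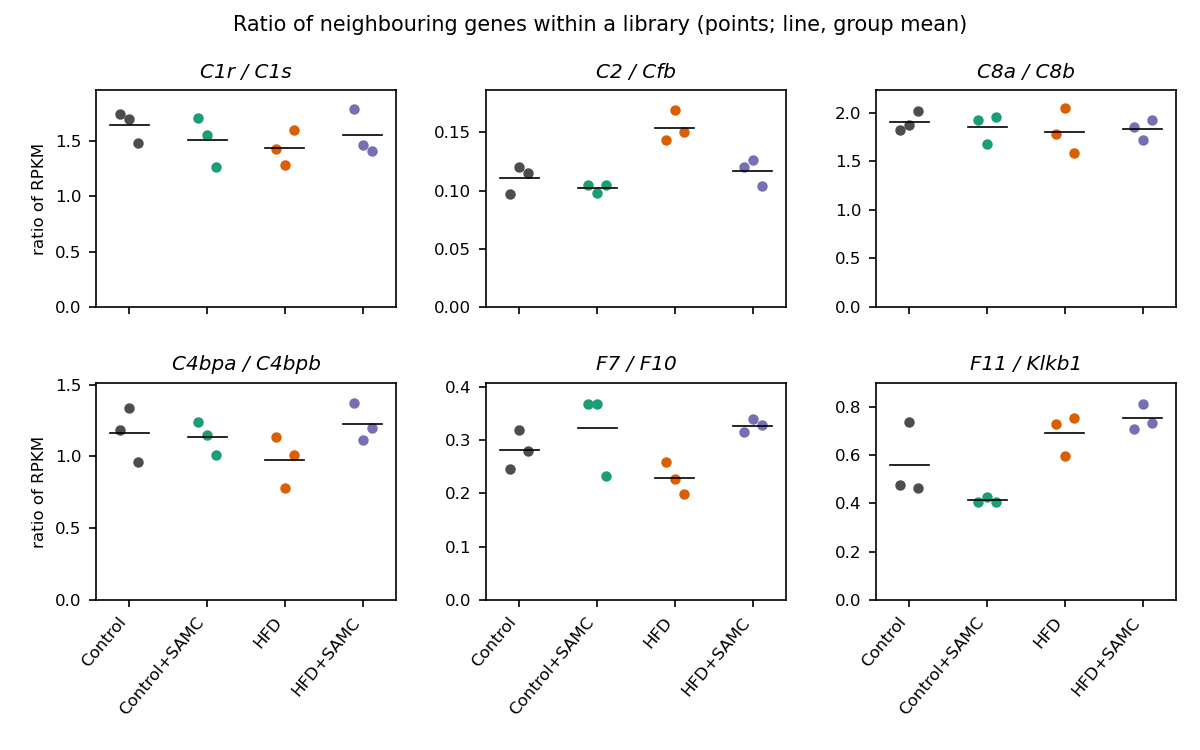
Ratio of RPKM within a library for the 6 neighbouring gene pairs, by group (points, libraries; line, group mean; axes start at 0). C8a to C8b varies little, at 1.58 to 2.05, while C2 to Cfb is highest in the 3 HFD libraries and F11 to Klkb1 lowest in the 3 Control+SAMC libraries.

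The 200 bases before the start of 5 of these neighbours are shown from RefSeq (GRCr8), to set the pairs with steady and with shifting ratios beside each other, and for C1r, which had the smallest p under SAMC on the high fat diet. They are C8a (chr5:124866632-124866831, minus strand), C8b (chr5:124763914-124764113, plus strand), F11 (chr16:53720302-53720501, plus strand), Klkb1 (chr16:53691026-53691225, plus strand) and C1r (chr4:159098813-159099012, plus strand). Each is written 5′ to 3′ on the strand of its gene, with motif matches in capitals.
C8a: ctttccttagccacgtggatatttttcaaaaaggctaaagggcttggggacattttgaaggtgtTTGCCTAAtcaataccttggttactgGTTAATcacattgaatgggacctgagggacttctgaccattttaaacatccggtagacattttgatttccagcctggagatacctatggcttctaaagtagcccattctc
C8b: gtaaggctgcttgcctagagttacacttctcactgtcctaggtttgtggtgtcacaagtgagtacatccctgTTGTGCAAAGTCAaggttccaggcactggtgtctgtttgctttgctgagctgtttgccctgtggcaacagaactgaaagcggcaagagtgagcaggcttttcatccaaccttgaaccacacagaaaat
F11: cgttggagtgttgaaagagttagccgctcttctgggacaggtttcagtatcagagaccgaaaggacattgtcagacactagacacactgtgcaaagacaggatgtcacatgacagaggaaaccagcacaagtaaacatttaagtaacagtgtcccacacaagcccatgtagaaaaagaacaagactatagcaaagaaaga
Klkb1: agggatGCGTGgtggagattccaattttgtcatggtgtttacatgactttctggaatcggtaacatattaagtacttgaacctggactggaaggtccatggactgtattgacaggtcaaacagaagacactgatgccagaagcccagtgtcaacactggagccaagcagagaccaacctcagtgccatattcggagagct
C1r: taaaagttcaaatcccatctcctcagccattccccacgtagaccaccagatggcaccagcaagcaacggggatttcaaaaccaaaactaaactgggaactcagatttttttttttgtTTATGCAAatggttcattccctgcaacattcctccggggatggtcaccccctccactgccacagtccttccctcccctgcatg
In C8a the capitals are a C/EBP match (TTGCNNAA) at -136 to -129 from the start and an HNF1 half-site match (GTTAAT) at -110 to -105. In C8b a C/EBP match at -128 to -121 and a match to the antioxidant response element bound by Nrf2 (TGACNNNGC) at -124 to -116 overlap, both on the reverse strand. The capitals in C1r are a reverse C/EBP match at -83 to -76, those in Klkb1 an AhR core (GCGTG) at -194 to -190, and in F11 none of the motifs searched was found in these bases.

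Of the 36 genes, 28 had a promoter entry in that RefSeq table, and Masp2, C1s, C2, Cfb, C8g, C9, Serpind1 and Cpb2 had none. Windows of 300 bases, 250 before the start and 50 after, were searched on both strands in these 28 and in all 33469 promoters. The HNF1 motif GTTAAT was found in 8 of 28 (28.6%, against 7.45% of all promoters), in C5, C8a, C4bpa, C4bpb, F2, F13b, Proc and Plg. The C/EBP motif TTGCNNAA was found in 9 (32.1% against 10.6%), and the STAT motif TTCNNNGAA in 5 (17.9% against 8.87%). For the factors that the series names, the Nrf2 motif TGACNNNGC was found in 4 of 28 (14.3% against 12.1%), in Masp1, C8b, Vtn and Proc, and the AhR core GCGTG in 5 (17.9% against 29.7%). TATAAA, the letters of a TATA box, was found in 1 (3.57% against 14.2%). That match, in C6, lies at 22 to 27 after the start, not before it. The exact HNF4 string CAAAGTCCA was found in 0 of 28, which is near its share of 0.391% of all promoters. A match describes letters only and carries no test.

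Among 31 tested complement genes outside the 36, Itgax, the alpha chain of complement receptor 4 on myeloid cells, was the only one called in any averaged contrast. Its CPM was 1.26, 0.514 and 0.875 in Control, 1.12, 0.821 and 0.94 in Control+SAMC, 2.31, 2.43 and 2.15 in HFD and 1.85, 2.34 and 3.44 in HFD+SAMC libraries. All 6 high fat diet libraries were above all 6 normal diet libraries, and the averaged diet difference was 1.39 ± 0.24 (adjusted p = 0.0303) in edgeR. The call was lost with the replicate block (adjusted p = 0.0731) and without Control replicate 3, Control+SAMC replicate 1, 2 or 3, HFD replicate 2 or 3, or HFD+SAMC replicate 2 or 3 (adjusted p 0.0585 to 0.0889). Kupffer cell and macrophage markers were higher in this contrast for 13 of 13 with TMM. Library totals, which move genes upward here, gave the same count and are no separate support. Of the markers C1qa, C1qb, C1qc and Vsig4 are also among the 31 complement genes. The markers had a median of 0.38, with 8 at an unadjusted p under 0.05 (13.6% of all genes) and none called. None of the markers was at 0 in any library. They summed in CPM to 581 to 906 in Control, 695 to 903 in Control+SAMC, 948 to 1109.8 in HFD and 791 to 940.3 in HFD+SAMC, and their part in the Itgax difference was not tested. In that list of 31 genes 21 were higher and 10 lower with diet, with a median of 0.10, and 30 and 1 under library totals. Carboxypeptidase N (Cpn1), which trims complement fragments, differed by -0.36 ± 0.10 (adjusted p = 0.143) for diet. For SAMC 13 were higher and 18 lower (16 and 15 under library totals), with -0.45 ± 0.10 (adjusted p = 0.088) for the collectin Colec11 and 0.35 ± 0.13 (adjusted p = 0.303) for the C3b regulator Cr1l.

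Among 36 tested coagulation genes outside the members, 15 were higher and 21 lower with diet, and 16 higher and 20 lower with SAMC, with none called. Under library totals these were 27 and 9, and 21 and 15. Vkorc1, which recycles vitamin K for the factors above, differed by -0.57 ± 0.16 (adjusted p = 0.166) for diet and was highest at 245 CPM in Control replicate 2. Tissue factor (F3), at 0.224 to 1.49 CPM, differed by 1.00 ± 0.32 (adjusted p = 0.234) and urokinase (Plau) by -0.57 ± 0.18 (adjusted p = 0.219) for SAMC. Serpina10, the protein Z-dependent inhibitor of factor X, was the only one called for the interaction, at -2.33 ± 0.34 (adjusted p = 0.0231).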

How the data were processed

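Liver RNA of 12 rat samples was sequenced as paired reads of 150 bp after removal of ribosomal RNA, per the labels' protocols. Reads were trimmed with Trimmomatic 0.36, per the submitters' processing notes, and the authors aligned them with HISAT2 and deposited a read count per gene made with HTSeq, per the labels' protocols. For build, annotation and strand setting, nothing is given in the sources used here. RPKM, deposited by the authors beside the counts, served for levels between genes, for ratios and in 1 alternative fit. Groups came from the treatment labels.

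The members and gene lists were chosen with earlier results of these data known. Counts were fitted in R 4.3.3 with edgeR 4.0.16: filterByExpr kept 15916 genes (99.96% of counts), TMM scaling was applied, and all 12 libraries entered 1 robust quasi-likelihood fit with 8 residual degrees of freedom and a common biological coefficient of variation of 0.299. Tests were two-sided and adjusted by Benjamini-Hochberg over all tested genes within each of 9 contrasts, with a threshold of 0.05. Log2 fold changes are given ± SE, and 95% intervals come from the same fit. Alternatives were DESeq2 1.42.0, limma 3.58.1 on log2(RPKM + 0.1), other scalings and filters, a replicate block, fits of only the groups compared, and leaving out each library. Pseudocounts understate changes of low genes in the limma fit. Values per library are given for members past the threshold, for the 3 members with the smallest p in each single-factor and averaged contrast, and for the member with the highest RPKM of each role. Companion genes named are those past the threshold and the 2 with the smallest p per list in each averaged contrast. A companion gene that this rule names is not reported here. Total counts of 45680738 or more per library leave library spread, not counting, as the main error for most members. For genes at low CPM, such as F3 and Itgax, counting error adds to it. Reads of overlapping or near-identical genes cannot be told apart here.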

Additional observations from a re-analysis of the deposited data

Results flagged for a closer look

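Serpina10, the protein Z-dependent inhibitor of factor X, is no member of the 36 genes and had an interaction of diet and SAMC of -2.33 ± 0.34 (-2.329 before rounding) with an adjusted p of 0.0231 in edgeR's test of the interaction term, which is why it is listed here. Its CPM was 2.46, 1.84 and 1.79 in Control, 3.57, 4.23 and 5.60 in Control+SAMC, 3.66, 4.21 and 4.94 in HFD and 1.79, 2.18 and 1.62 in HFD+SAMC libraries. With SAMC it was higher on the normal diet by 1.14 ± 0.24 and lower on the high fat diet by -1.19 ± 0.24 on the log2 scale, without overlap between libraries in either case. Control and HFD+SAMC libraries, the low ones, also form the library set whose RPKM was made with the other length table. CPM uses no gene length, but the interaction cannot be told apart from that set. The call was lost with the replicate block (adjusted p = 0.201) and without Control replicate 2 or 3, Control+SAMC replicate 2 or 3, HFD replicate 3 or 4, or HFD+SAMC replicate 1, 2 or 3 (0.0558 to 0.0955).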

How the results depend on the processing

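With 3 libraries a group, 19 alternatives were tried. Of 372 alternative values of named genes 341 kept their direction and side of the threshold, 0 reversed, 12 passed it newly and 19 fell short, 9 of them for Itgax and 10 for Serpina10. For the 36 members the main count called was 0 in every contrast. DESeq2 called 1 (Control+SAMC against Control), 2 (averaged diet), 2 (averaged SAMC), 4 (HFD+SAMC against Control: C8g, F2, Cfi and Serpinc1) and 1 (HFD against Control+SAMC). Library totals called 3 for averaged diet and 1 (F11) for HFD+SAMC against Control, and limma 3 for averaged diet and 1 for HFD against Control+SAMC. Leaving out 1 library gave 0 to 1 for averaged SAMC and for HFD+SAMC against Control, the 1 being C8g without Control replicate 1, and 0 in the other contrasts. The cause of these differences was not tested.

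The median log2 fold change of the members moved by more than the spread between libraries (SD 0.105) mainly with library totals, which leave out TMM, and with limma on RPKM, which does so too. For these it was 0.19 and 0.17 in HFD against Control, 0.00 and 0.00 in Control+SAMC against Control (-0.0025 and 0.0014), 0.11 and 0.12 in HFD+SAMC against Control+SAMC, 0.0964 and 0.0939 for averaged diet, -0.0268 and -0.034 for the interaction, 0.0748 and 0.0717 in HFD+SAMC against Control, and 0.152 and 0.154 in HFD against Control+SAMC. With 1 library left out it ranged from -0.257 (Control replicate 1 left out) to -0.0847 (Control replicate 2) in HFD against Control, and from -0.255 (Control+SAMC replicate 2) to -0.0538 (Control replicate 2) in Control+SAMC against Control.

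Over all genes the count called was 67 for averaged diet, and 30 to 130 with 1 library left out and 53 to 573 otherwise. For averaged SAMC it was 35, against 13 to 68 and 10 to 436. For the interaction it was 23, against 7 to 19 and 9 to 128. It was 23 for HFD against Control (4 to 53 and 4 to 308), 8 for HFD+SAMC against HFD (1 to 27 and 7 to 246), 19 for Control+SAMC against Control (3 to 23 and 5 to 220) and 10 for HFD+SAMC against Control+SAMC (1 to 45 and 2 to 272). It was 28 for HFD+SAMC against Control (7 to 53 and 23 to 448) and 58 for HFD against Control+SAMC (5 to 140 and 41 to 550). DESeq2 gave the most calls in all contrasts but averaged diet, where library totals did. Library totals also moved the split of calls upward. Of 67 calls for averaged diet 38 were upward with TMM, and of 573 with library totals 529 were. The same was 12 of 23 and 123 of 136 for HFD against Control, 16 of 28 and 171 of 185 for HFD+SAMC against Control, and 23 of 58 and 92 of 127 for HFD against Control+SAMC.

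A fit with the replicate block called 0 members in every contrast (lowest adjusted p 0.178), with a median of -0.13 for averaged diet, and took averaged SAMC from 35 to 10 genes. The numbers were not used to pair libraries: same-numbered libraries correlated at -0.221 to 0.248 in their deviations from group means, and different numbers at -0.353 to 0.314.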

Other observations

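Genes of hepatocyte regulation and of the acute phase, which share regulators with the members, gave these values. Of 22 tested liver regulators 7 were higher and 15 lower for averaged diet, or 15 and 7 under library totals. None was called by edgeR, and 5 were at an unadjusted p under 0.05 (13.6% of all genes). Onecut1, a hepatocyte transcription factor, was at 524, 425 and 547 in Control, 632, 369 and 577 in Control+SAMC, 392, 355 and 356 in HFD and 286, 164 and 265 in HFD+SAMC libraries and differed by -0.79 ± 0.17 (adjusted p = 0.0677). Foxa3, another such factor, was at 65.2, 57.5 and 63.8 in Control, 35.1, 32.7 and 79.9 in Control+SAMC, 26.2, 21.7 and 31.9 in HFD and 28.7, 31.1 and 28.1 in HFD+SAMC libraries, with every high fat diet library below every normal diet library and a difference of -0.99 ± 0.20 (adjusted p = 0.0683). With library totals the diets overlapped for Foxa3. For SAMC 6 were higher and 16 lower (9 and 13 under library totals) with none called, among them Creb3l3, an activator of acute-phase genes, at -0.43 ± 0.12 (adjusted p = 0.163), and the interleukin 6 receptor chain Il6r at -0.43 ± 0.13 (adjusted p = 0.203).

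Of 19 acute-phase genes 4 were higher and 15 lower for averaged diet, or 7 and 12 under library totals, with a median of -0.39 and none called, while the members' median was -0.13. C-reactive protein (Crp) differed by -0.60 ± 0.14 (adjusted p = 0.0973) and serum amyloid P (Apcs) by -0.37 ± 0.11 (adjusted p = 0.18). For SAMC 10 were higher and 9 lower, or 11 and 8. Orm1 differed by 1.23 ± 0.33 (adjusted p = 0.171) and ranged from 203 to 1147 CPM, and Fgl1, a fibrinogen-like protein, by -0.86 ± 0.30 (adjusted p = 0.277). Libraries within a group differed widely in the fibrinogen chain Fga. Its CPM was 18523, 3588 and 12950 in Control and 3407, 11358 and 17184 in Control+SAMC libraries. In HFD libraries it was 3822, 3378 and 14057, and in HFD+SAMC libraries 8221, 10748 and 12892. The part of this spread in the differences between groups was not tested. Among the marker lists Clec4g, a lectin of liver sinusoidal endothelium, was called for averaged SAMC at -0.74 ± 0.12 (adjusted p = 0.0297), at 28.8, 27.8 and 27.6 in Control, 22.02, 12.4 and 15.6 in Control+SAMC, 23.4, 23.7 and 26.6 in HFD and 13.4, 15.5 and 15.3 in HFD+SAMC libraries CPM. It was the only one of 8 endothelial markers called.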
